A study of Mus musculus with 4 samples.

Results

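Endothelial cells line every blood vessel, and in the heart a specialised endothelium, the endocardium, lines the chambers and faces the heart muscle. The messenger RNAs of 36 genes that mark these cells were followed in the ventricles of mouse embryos. All 36 were found by symbol among the 38293 genes of the deposited table. The genes cover surface and junction proteins shared by most endothelium (14 genes), the receptor kinases for VEGF and angiopoietins (5), transcription factors (7), endocardial genes (4), genes of coronary vessels and capillaries (3), arterial genes (2) and 1 lymphatic gene. They are known markers, divided here by role, and were chosen with earlier results of these data known.

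The samples were ventricles of C57BL/6 mouse embryos at E12.5, all from litter 6, after atria and valve region had been cut away. Whether a library held 1 embryo or a pool is not stated, so the spread between replicates may be partly technical. The cKO group (2 libraries, replicates 2 and 3) had the genotype Hif1alphaflox/flox/Nkx2.5Cre/+, with both copies of Hif1a floxed and 1 copy of the Nkx2-5 locus carrying Cre recombinase. The control group (2 libraries, replicates 2 and 3) had the genotype Hif1alphaflox/flox/Nkx2.5+/+, also floxed at both Hif1a copies but lacking Cre. Hif1a encodes HIF-1 alpha, the part of the HIF-1 factor that oxygen controls. The comparison asks whether endothelial messages differ in the ventricle when Cre is made from the Nkx2-5 locus in embryos with floxed Hif1a, and whether they do so together or by vessel type. Nkx2-5 is expressed in heart muscle precursors and, in mice, in some of the cells that give rise to endocardium. No group had Cre without floxed Hif1a, so the effects of Cre, of its place in the Nkx2-5 locus and of Hif1a loss cannot be told apart.

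Total expected counts were 9980051 and 19801300 in the cKO libraries and 8561687 and 8989184 in the control libraries. The deepest library was cKO replicate 3. It alone had more than a trace of the Y-linked gene Ddx3y (101 CPM, against at most 0.110 CPM elsewhere). Xist, an X-linked gene active in females, stood at 2097 and 2.11 CPM in cKO, against 2026 and 1754 CPM in control. By these genes cKO replicate 3 reads as male and the other libraries as female, so sex is unbalanced within cKO. None of the 36 genes lies on chromosome X or Y (0 of 36), and the part of sex in their values was not tested. Hif1a itself stood at 716 and 663 CPM in cKO, against 530 and 552 CPM in control. Reads were summed over all exons, floxed or not, which leaves the deletion unchecked. Nkx2-5 stood at 44.3 and 42.1 CPM in cKO, against 55.9 and 64.9 CPM in control. All 12 genes of a heart muscle list were measured, with a summed level between 41263 and 45028 CPM.

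The endothelium is built through receptor kinases that receive VEGF (Kdr, Flt1 and Flt4) and angiopoietins (Tek, with its relative Tie1), junction proteins that seal the cells to each other (Cdh5, Cldn5, Esam) and transcription factors of the ETS and SoxF families (Erg, Fli1, Sox7, Sox17, Sox18). HIF factors bind short DNA elements with the core ACGTG or GCGTG, and ETS factors bind elements around the core GGAA. The windows before the starts of 4 of these genes are given because such elements can lie there. They belong, in each of 4 role groups, to the gene with the smallest p among those with a usable window: Flt1 and Clec14a led their groups, while Klf2 and Emcn came after genes without one. Each holds the 250 bases before the start of the gene in RefSeq, on GRCm38.p6 and on the strand of the gene. A window was taken only where 1 start is listed and lies within 100 bases of the start of the principal GENCODE transcript, a condition added after Npr3 and Erg had been looked at. Capitals mark matches on either strand to both HIF cores and to the ETS core with a further G, GGAAG, so that a match on the other strand appears as its reverse complement. Flt1 is a receptor kinase (chr5:147726012-147726261, minus strand), Clec14a a surface lectin (chr12:58269259-58269508, minus), Klf2 a flow-responsive factor (chr8:72318812-72319061, plus) and Emcn the sialomucin endomucin (chr3:137340828-137341077, plus).
Flt1: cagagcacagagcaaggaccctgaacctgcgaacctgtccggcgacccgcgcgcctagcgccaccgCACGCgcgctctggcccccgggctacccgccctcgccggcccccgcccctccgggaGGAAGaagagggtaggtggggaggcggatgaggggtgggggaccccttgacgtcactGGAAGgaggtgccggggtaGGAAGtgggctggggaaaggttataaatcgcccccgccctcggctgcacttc
Clec14a: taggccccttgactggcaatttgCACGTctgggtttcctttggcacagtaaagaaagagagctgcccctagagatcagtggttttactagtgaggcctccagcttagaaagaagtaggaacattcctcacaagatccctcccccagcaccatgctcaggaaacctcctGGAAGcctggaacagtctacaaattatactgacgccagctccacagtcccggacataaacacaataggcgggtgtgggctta
Klf2: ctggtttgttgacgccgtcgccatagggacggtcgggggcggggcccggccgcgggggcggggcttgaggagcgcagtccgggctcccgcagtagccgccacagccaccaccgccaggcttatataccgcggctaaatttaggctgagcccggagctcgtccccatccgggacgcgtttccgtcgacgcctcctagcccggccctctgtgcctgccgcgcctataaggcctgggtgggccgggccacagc
Emcn: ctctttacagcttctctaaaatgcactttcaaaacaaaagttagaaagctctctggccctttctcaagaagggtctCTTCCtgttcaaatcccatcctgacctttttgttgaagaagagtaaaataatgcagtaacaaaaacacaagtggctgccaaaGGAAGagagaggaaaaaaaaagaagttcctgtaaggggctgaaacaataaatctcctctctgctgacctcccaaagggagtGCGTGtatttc

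The Flt1 window holds 3 GGAAG matches and 1 GCGTG match on the other strand, and the Emcn window holds 2 GGAAG matches and 1 GCGTG match. The Clec14a window has 1 match to ACGTG and 1 to GGAAG, and the Klf2 window has none of the 3 motifs. RefSeq windows were at hand for 18 of the 36 genes, taken at the listed start nearest the principal one, and GGAAG occurred in 13 of them (72.2%), against 10730 of all 16519 promoters of the same length. ACGTG occurred in 2 of the 18 (11.1%), against 17.9% of all promoters, and GCGTG in 3 (16.7%), against 34.9%. The searches overlap where ACGTG is read on both strands of CACGTG. A match is a description of the letters and was not tested for binding.

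Of the 36 genes, 35 had enough counts to be tested. None of them passed the test at an adjusted p of 0.05 (edgeR's quasi-likelihood test with Benjamini-Hochberg adjustment over 13711 genes), where 0.511% of all genes tested did (0.365% lower and 0.146% higher in cKO). DESeq2 and limma-voom also called 0. At an unadjusted p under 0.05, edgeR had 10 of the 35 genes, all lower in cKO, where 3.58% of all genes tested were lower at that level and 6.97% lay under it in either direction. The log2 fold change of cKO over control was negative for 31 of the 35 genes (88.6%), and it was negative for 50.1% of all genes tested. The median was -0.17, against 0.00 over all genes tested (-0.00031). For 16 genes (45.7%) both cKO libraries lay below both controls, and 18.8% of all genes tested did so. These genes come from the same 4 libraries and can vary together, so their number does not add replicates. In bulk ventricle, fewer endothelial cells and less RNA of these genes per cell cannot be told apart.

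**Figure D1:**
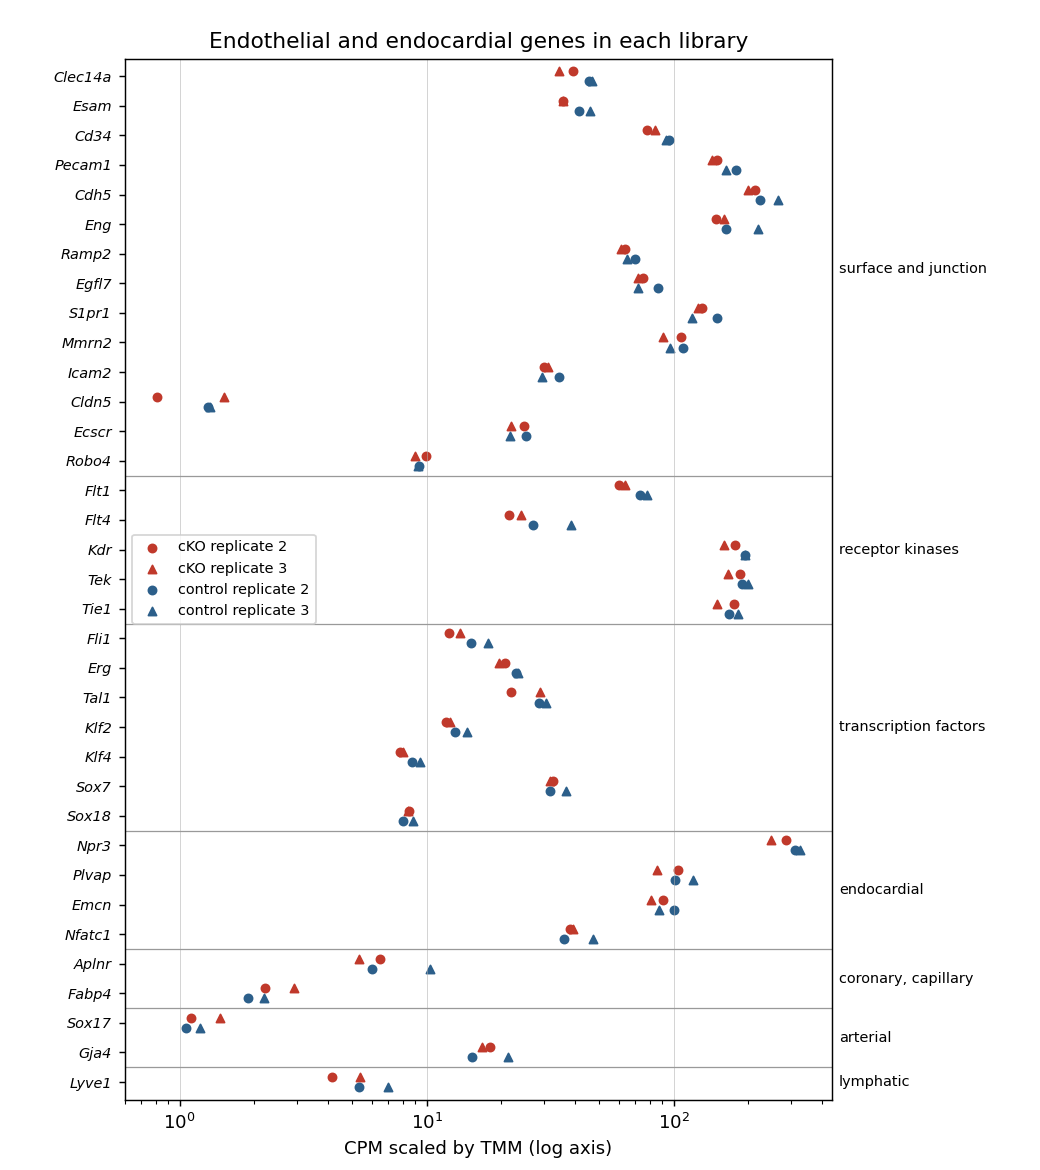
Level of 35 endothelial and endocardial genes in each library, in CPM scaled by TMM on a log axis, grouped by role; cKO libraries are red and sit above the control libraries, which are blue. The cKO points lie left of the control points without overlap for 16 genes, among them Flt1, Esam and Cd34, and by a small distance. Over all genes tested, 18.8% were so placed. Gpihbp1, with 0 counts in 1 library, is not drawn.

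The summed level of all 36 genes was 2394 and 2240 CPM in cKO, against 2591 and 2703 CPM in control. Both cKO sums were below both control sums. Against the mean of the controls, the median gene stood at -0.13 on the log2 scale in cKO replicate 2 and at -0.19 in cKO replicate 3. Replicate 3 over replicate 2 had a median of -0.05 within cKO and of 0.10 within control. The median change of -0.17 was larger in size than either. For single genes, the change exceeded the difference within both replicate pairs in 13 of 35.

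Flt1 (ENSMUSG00000029648) lies at chr5:147561604-147726011 on the minus strand, Flt4 at chr11:49609263-49652739 on the plus strand, Clec14a at chr12:58264720-58269290 and Npr3 at chr15:11839896-11907287, both on the minus strand, in GENCODE on GRCm38. The receptor kinases had negative log2 fold changes in all 5 members (against 50.1% of all genes tested), with a median of -0.21. Flt1, a VEGF receptor that also acts as a decoy, stood at 60.2 and 63.4 CPM in cKO, against 73.2 and 78.3 CPM in control. Both cKO libraries were below both controls. The log2 fold change was -0.29 ± 0.09 (SE), with a 95% interval of -0.50 to -0.09 (adjusted p = 0.515). Flt4, the receptor for VEGF-C of lymphatic and early blood endothelium, had 21.5 and 24.2 CPM in cKO, against 27.1 and 38.6 CPM in control. It had the most negative fold change of the 35 genes (-0.51 ± 0.16, adjusted p = 0.530), and control replicate 3 stood apart from the other 3 libraries. Without control replicate 3 the value was -0.23, and without control replicate 2 it was -0.75.

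Kdr, the main VEGF signalling receptor, stood at 178 and 159 CPM in cKO, against 195 and 194 CPM in control. The controls nearly coincided and both cKO values were below them, with a log2 fold change of -0.21 ± 0.09 (adjusted p = 0.696). Tek, the angiopoietin receptor, had a log2 fold change of -0.14 ± 0.09, also with no overlap between groups. Tie1 had -0.11 ± 0.10, and its groups overlapped. Without cKO replicate 3 the value was -0.13 for Kdr and -0.06 for Tek.

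Of the 14 surface and junction genes, 13 had negative log2 fold changes, with a median of -0.11, and 7 were lower in cKO without overlap. Over all genes tested, 50.1% were negative and 18.8% were lower without overlap. Clec14a, a lectin of the endothelial surface, had the smallest p of all 35 genes. It stood at 39.0 and 34.5 CPM in cKO, against 45.6 and 46.6 CPM in control. Both cKO libraries lay below the controls, with a log2 fold change of -0.34 ± 0.10 (95% interval -0.56 to -0.11, adjusted p = 0.481). Esam, an adhesion molecule of tight junctions, had 35.7 and 35.8 CPM in cKO, against 41.3 and 46.0 CPM in control. The cKO libraries were nearly identical, and the log2 fold change was -0.29 ± 0.10 (adjusted p = 0.567). Cd34, a sialomucin of endothelium and blood progenitors, had 78.2 and 83.7 CPM in cKO, against 96.2 and 93.2 CPM in control (-0.22 ± 0.08, adjusted p = 0.642). Exons of Cd34, Egfl7, Eng, Ecscr, Npr3 and Sox17 overlap a gene on the other strand and those of Ramp2 overlap Vps25, so their reads may be shared with these neighbours. Expected counts of Cd34, Egfl7 and Ramp2 were not all whole, while those of Eng, Ecscr, Npr3 and Sox17 were.

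The classic pan-endothelial markers Pecam1 (-0.23 ± 0.08), an adhesion molecule between endothelial cells, and Cdh5 (-0.24 ± 0.10), the cadherin of their junctions, had values close to that of Cd34. Without control replicate 3 the value for Cdh5 was -0.11, and without control replicate 2 it was -0.36. Eng, a co-receptor for BMP and TGF-beta ligands, had a log2 fold change of -0.32 ± 0.13, with 148 and 160 CPM in cKO, against 164 and 220 CPM in control. Control replicate 3 was again high, and without it the value was -0.08. The remaining 8 surface genes were closer to 0. They ran from -0.11 for Ramp2, a co-receptor of the adrenomedullin receptor, to 0.01 for Robo4, a guidance receptor of endothelium. Mmrn2, Egfl7, Icam2, S1pr1 and Ecscr lay in between, and each of these 5 genes changed sign when 1 library was left out. Cldn5, the claudin of tight junctions, was low, with 0.809 and 1.51 CPM in cKO, against 1.3003 and 1.3232 CPM in control. Its interval ran from -1.15 to 0.94, so changes well below 2-fold were not detectable at this depth.

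**Figure D2:**
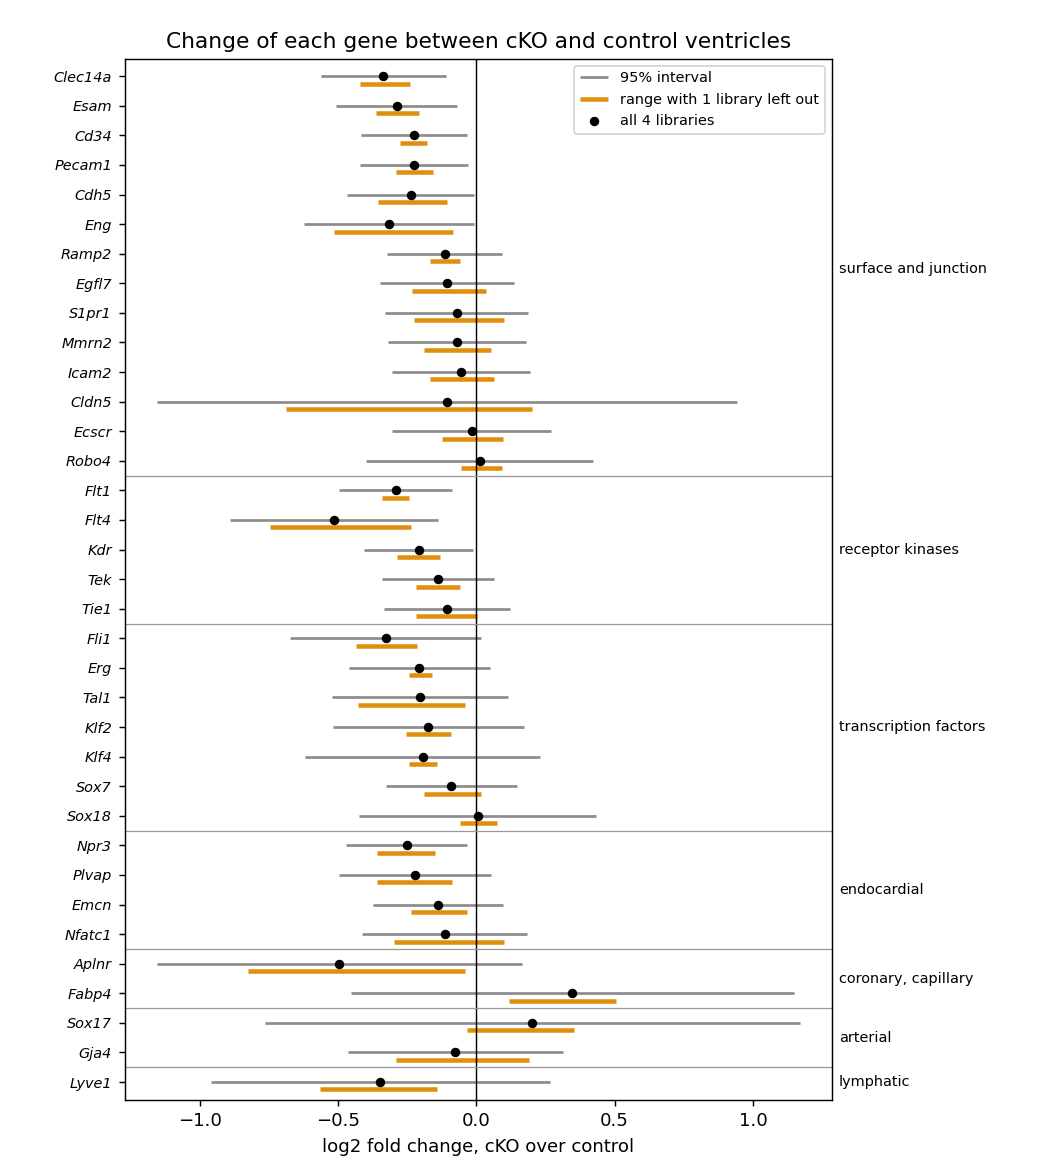
Log2 fold change of cKO over control for 35 genes, grouped by role (points), with the 95% interval (grey) and the range of values when 1 library is left out (orange). Most points lie between -0.35 and 0; 10 intervals lie wholly below 0 and 0 lie wholly above it, before adjustment for the number of genes tested.

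Of the 7 transcription factors, 6 had negative log2 fold changes, with a median of -0.19, and 4 were lower in cKO without overlap. The shares over all genes tested were 50.1% and 18.8%. Fli1, an ETS factor of endothelium and megakaryocytes, had 12.3 and 13.7 CPM in cKO, against 15.1 and 17.6 CPM in control. The groups were apart, and the log2 fold change was -0.33 ± 0.15 (adjusted p = 0.708). Erg, the ETS factor that maintains endothelial identity, had 20.8 and 19.6 CPM in cKO, against 23.1 and 23.5 CPM in control. The groups did not overlap, and the change was small (-0.21 ± 0.11, adjusted p = 0.760). Tal1, a factor of blood and endothelial precursors, had 22.0 and 28.7 CPM in cKO, against 28.6 and 30.4 CPM in control. Only cKO replicate 2 was low among the 4 libraries, and without it the log2 fold change was -0.04, against -0.20 ± 0.14 with all libraries.

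That library also had the lowest sum of 10 erythroid genes. The sum was 2660 CPM in cKO replicate 2 and 6436 CPM in cKO replicate 3, against 5058 and 5815 CPM in the controls. Itga2b, an integrin of megakaryocytes, was likewise lowest there, with 7.08 and 14.6 CPM in cKO, against 13.0 and 15.8 CPM in control. The part of blood cells in the Tal1 value was not tested. The flow-responsive factors Klf2 (-0.17 ± 0.15) and Klf4 (-0.19 ± 0.18) had similar values, both without overlap between groups. The SoxF factors Sox7 (-0.09 ± 0.10) and Sox18 (0.01 ± 0.19) were near 0, and both changed sign when 1 library was left out.

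All 4 endocardial genes (against 50.1% of all genes tested) had negative log2 fold changes, between -0.25 and -0.11, with a median of -0.18. With 1 library left out, this median ran from -0.29 (without control replicate 2, and likewise without cKO replicate 2) to -0.11 (without cKO replicate 3). Npr3, the clearance receptor for natriuretic peptides, which marks embryonic endocardium, stood at 286 and 247 CPM in cKO, against 310 and 324 CPM in control. Both cKO libraries were below both controls, with a log2 fold change of -0.25 ± 0.10 (95% interval -0.47 to -0.03, adjusted p = 0.648). Without cKO replicate 3 it was -0.15. Plvap, a protein of the diaphragms in fenestrae and caveolae, had 104 and 85.9 CPM in cKO, against 101 and 120 CPM in control. Here the groups overlapped, with cKO replicate 3 alone low (-0.22 ± 0.12, adjusted p = 0.761). The value was -0.09 without cKO replicate 3 and also without control replicate 3. Emcn had 90.4 and 80.8 CPM in cKO, against 101 and 87.4 CPM in control (-0.14 ± 0.10, adjusted p = 0.820). It ran from -0.24 (without control replicate 3) to -0.03 (without control replicate 2). Nfatc1, a factor of the endocardium that forms valves, had 37.9 and 39.0 CPM in cKO, against 35.9 and 47.3 CPM in control. The controls bracketed the cKO libraries, and the value turned to 0.10 without control replicate 3.

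The genes of single vessel types were mostly low. Aplnr, the apelin receptor of venous and sprouting coronary endothelium, had 6.47 and 5.32 CPM in cKO, against 6.03 and 10.4 CPM in control. Its value of -0.49 ± 0.29 (adjusted p = 0.768) rested on control replicate 3, without which it was -0.04. Fabp4, a fatty acid carrier of capillary endothelium, had 2.23 and 2.91 CPM in cKO, against 1.89 and 2.21 CPM in control. It was the 1 gene of the 35 with both cKO libraries above both controls, where 19.4% of all genes tested were so placed, and its log2 fold change of 0.35 ± 0.35 had an interval of -0.45 to 1.15 (adjusted p = 0.876). For Fabp4, cKO replicate 2 (22 counts) and control replicate 3 (20 counts) were nearly level. Gpihbp1, the capillary anchor of lipoprotein lipase, had 2 and 5 counts in cKO, against 0 and 3 counts in control. It was not tested, and no fold is given.

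Gja4, the connexin 37 of arterial endothelium, had 18.1 and 16.8 CPM in cKO, against 15.2 and 21.3 CPM in control (-0.08 ± 0.17, adjusted p = 0.949). The cKO values lay between the controls. Sox17, an arterial factor, had 1.11 and 1.46 CPM in cKO, against 1.06 and 1.21 CPM in control (0.20 ± 0.42, adjusted p = 0.946). Lyve1, the hyaluronan receptor of lymphatic endothelium, which is also made by some tissue macrophages, had 4.15 and 5.37 CPM in cKO, against 5.32 and 6.95 CPM in control (-0.35 ± 0.27, adjusted p = 0.830). It was highest in control replicate 3, as were the macrophage genes Mrc1, with 10.1 and 10.4 CPM in cKO, against 9.34 and 25.03 CPM in control, and Csf1r, with 12.9 and 15.2 CPM in cKO, against 13.2 and 26.8 CPM in control. The sum of 11 macrophage and other immune genes was 106 and 79.5 CPM in cKO, against 94.9 and 121 CPM in control. Without control replicate 3 the Lyve1 value was -0.14, and without cKO replicate 3 it was -0.57. The part of immune cells in it was not tested.

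**Figure D3:**
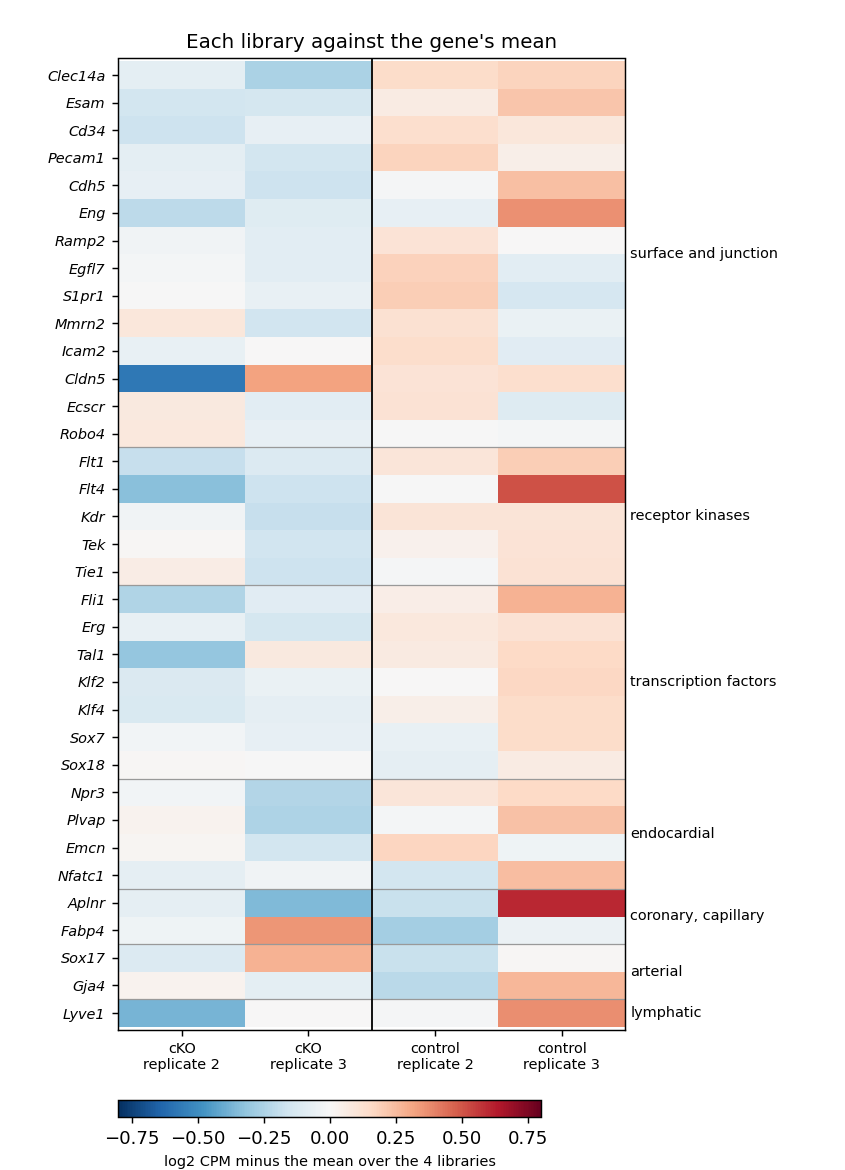
Log2 CPM of each gene minus its mean over the 4 libraries, with the cKO libraries left of the control libraries and genes grouped by role (blue below the mean, red above it). Most genes are bluish in both cKO columns; Aplnr, Flt4, Eng and Lyve1 are highest in control replicate 3, and Tal1 and Cldn5 are lowest in cKO replicate 2.

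Whether the shift was uniform can be read from these values only in part. The medians of the 4 larger role groups ran from -0.21 (receptor kinases) to -0.11 (surface and junction genes). Their order changed when 1 library was left out. Without cKO replicate 3 the transcription factors had a median of -0.21, the surface genes of -0.14, the receptor kinases of -0.13 and the endocardial genes of -0.11. The SD of the 35 single values was 0.17. The median was -0.07 for 2 coronary and capillary genes and 0.06 for 2 arterial genes, groups that rest on genes with wide intervals. Without control replicate 3 the coronary median was 0.21, and without control replicate 2 the arterial median was -0.09. The difference between role groups was not tested. All 4 genes with positive values (Fabp4, Sox17, Robo4 and Sox18) had a mean under 10 CPM over the 4 libraries, as did 8 of the 35 genes. Among the 27 genes at 10 CPM or more, every value was negative with all 4 libraries. Some of these, such as Tie1, Nfatc1 and Gja4, turned positive when 1 library was left out. The line at 10 CPM is not one of the settings compared here. It falls just above Robo4 (9.36 CPM) and Sox18 (8.45 CPM), and with a mean of at least 5 CPM 30 of 32 values were negative. The half-width of the interval was between 0.19 and 0.39 for these 27 genes and between 0.41 and 1.05 for the other 8.

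Taken gene by gene and before adjustment, the intervals also limit the size of a change in the bulk RNA. A decrease of 2-fold or more lay outside the interval for 33 of the 35 genes, with Aplnr and Cldn5 as the exceptions, and a decrease of 1.5-fold or more for 27. An increase of 1.5-fold or more lay outside it for 32. With 1 library left out, 21 genes kept a negative value in all 4 fits, Fabp4 alone kept a positive one, and 13 changed sign. Control replicate 3 was above control replicate 2 for 24 of the 35 genes, with the widest gaps for Aplnr (0.78 on the log2 scale), Flt4 (0.51), Gja4 (0.48), Eng (0.43) and Nfatc1 (0.40). It was below for S1pr1 (-0.33), Egfl7 (-0.27), Icam2 (-0.23), Ecscr (-0.22) and Emcn (-0.20).

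The genes differed far more in level than between groups. Per kilobase of the principal transcript, the mean over the 4 libraries was highest for Emcn (66.2 CPM per kilobase), followed by Cdh5 (56.5), Ramp2 (55.0), Egfl7 (54.7), Plvap (51.6), Eng (50.6) and Pecam1 (48.5). Across libraries Emcn ran from 59.6 to 74.2 and Cdh5 from 50.2 to 66.4 CPM per kilobase, so neighbours in this order did not separate beyond their spread. Tie1 (41.2) and Tek (39.8) stood above Kdr (30.7), Flt1 (9.97) and Flt4 (4.45) among the receptor kinases. The ranges of Tie1 and Tek overlapped, while within each library Tie1 was above Tek, by least in control replicate 2 (40.9 against 40.7). Among genes that encode transcription factors Sox7 (10.0) was highest, before the endocardial Nfatc1 (8.89), Klf2 (7.03), Erg (6.70), Tal1 (6.51), Sox18 (5.22), Fli1 (4.43), Klf4 (2.80) and the arterial Sox17 (0.39). The lowest of all were Cldn5 (0.87), Sox17 and Gpihbp1 (0.24).

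A second list of 23 endothelial genes outside these 36 was also measured. Like the 36, it was chosen with earlier results of these data known, and it rests on the same 4 libraries. Of 22 tested, 0 passed edgeR's test and 5 had an unadjusted p under 0.05. Negative log2 fold changes numbered 15, with a median of -0.18 for the list, and 11 genes were lower in cKO without overlap. Over all genes tested, 6.97% lay under that p, 50.1% were negative and 18.8% were lower without overlap. She, an adaptor protein, had 32.5 and 31.3 CPM in cKO, against 39.0 and 44.2 CPM in control (-0.39 ± 0.10, adjusted p = 0.343). Calcrl, the receptor that pairs with Ramp2, had 79.5 and 60.8 CPM in cKO, against 91.8 and 90.0 CPM in control (-0.38 ± 0.13, adjusted p = 0.561). Of 7 further genes listed as arterial, 6 were negative (median -0.12, none past the test, 2 at an unadjusted p under 0.05). The exception was Gja5 (0.29 ± 0.21), with 411 and 241 CPM in cKO, against 261 and 270 CPM in control. Bulk ventricle does not show which cells made these RNAs, so the list need not stand for arterial endothelium. Notch4, an endothelial Notch receptor, had -0.42 ± 0.11 (adjusted p = 0.406), and the ephrin Efnb2 had -0.27 ± 0.09 (adjusted p = 0.570). The 3 venous genes had a median of -0.24, with Nrp2 at -0.25 ± 0.14 and the venous factor Nr2f2 at -0.24 ± 0.14. The difference between arterial and venous genes was not tested.

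**Figure D4:**
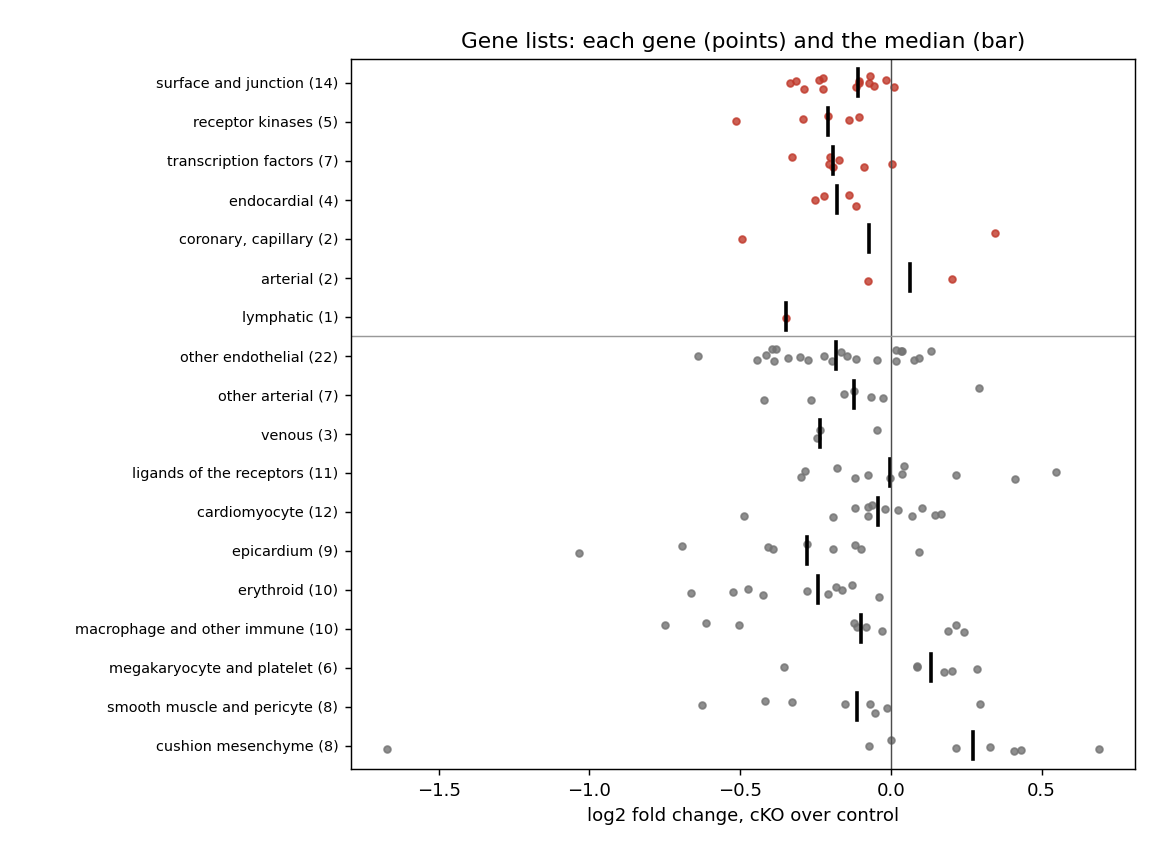
Log2 fold change of cKO over control for each tested gene (points, with a small vertical spread for legibility) and the median (bar) of each list, with the number of genes tested in brackets; the endothelial and endocardial genes are red, other lists grey. The larger endothelial groups sit slightly left of 0, and epicardial and cushion genes spread more widely.

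The ligands of these receptors were also measured. Of 13 listed, 11 were tested, 0 passed and 6 had negative log2 fold changes, with a median of 0.00 (-0.0041). Over all genes tested, 50.1% were negative. Vegfa, the main ligand of Kdr and Flt1, had 87.0 and 104 CPM in cKO, against 132 and 103 CPM in control (-0.30 ± 0.13, adjusted p = 0.708). Nppb, a natriuretic peptide bound by Npr3, had 159 and 141 CPM in cKO, against 136 and 122 CPM in control (0.22 ± 0.10, adjusted p = 0.708). The cKO libraries were both above the controls for Nppb, while for Vegfa control replicate 2 stood apart.

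Markers of other cells moved over a similar or wider range. Of 9 epicardial genes, 1 fell by edgeR's test (Krt19, a keratin, at 25.4 and 17.9 CPM in cKO, against 41.4 and 45.4 CPM in control, adjusted p = 0.0347), and 8 did not pass, among them Msln, a surface protein of mesothelium, at -0.69 ± 0.14. With 8 of 9 negative, 4 lower without overlap (44.4%) and 4 at an unadjusted p under 0.05 (44.4%), the epicardial shares were close to or above those of the endothelial genes (88.6%, 45.7% and 28.6%). Their median was -0.28, and their summed level was 385 and 291 CPM in cKO, against 368 and 410 CPM in control. The smooth muscle and pericyte list had a median of -0.11 with 0 of 8 past the test, 7 negative and 4 lower without overlap. Over all genes tested, 50.1% were negative, 18.8% were lower without overlap and 6.97% had an unadjusted p under 0.05 by edgeR's test. The summed level of the smooth muscle and pericyte list was 967 and 1064 CPM in cKO, against 1382 and 1360 CPM in control. Acta2, the smooth muscle actin, had -0.63 ± 0.11 (adjusted p = 0.0598), and Tagln, which encodes transgelin, -0.42 ± 0.09. Acta2 alone made up 497 to 862 CPM of the summed level, depending on the library. Myh11, also on this list, did not exceed 0.452 CPM in any library and was not tested. The source cells of these RNAs are not shown by bulk ventricle, so the list need not stand for smooth muscle. The 8 cushion genes had a median of 0.27, with Col2a1, a cartilage collagen, at -1.67 ± 0.54 and Sox9, a cartilage factor, at 0.43 ± 0.30. Their summed level was 1250 and 1774 CPM in cKO, against 1525 and 1635 CPM in control.

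The heart muscle genes had a median of -0.04, with 0 of 12 past the test, Nkx2-5 at -0.49 ± 0.10 and the myosin Myh7 at -0.19 ± 0.09. Of 11 erythroid genes listed, 10 were matched, and 0 passed the test. All 10 were negative (median -0.24), and 1 was lower without overlap. Over all genes tested, 50.1% were negative and 18.8% were lower without overlap. Slc4a1 had -0.66 ± 0.33 and Hba-x -0.52 ± 0.29. Set against the control mean, cKO replicate 2 alone gave an erythroid median of -1.06 on the log2 scale, whereas cKO replicate 3 gave 0.15. The negative median of this list thus rested on cKO replicate 2. The immune genes had a median of -0.10 (0 of 10), and the megakaryocyte and platelet genes 0.13 (0 of 6, Itga2b at -0.35 ± 0.30 and Pf4 at 0.29 ± 0.34), with a summed level of 19.1 and 33.4 CPM in cKO, against 27.1 and 29.6 CPM in control. None of the markers in these lists was at 0 in all libraries. At an unadjusted p under 0.05, edgeR had 4 epicardial genes, 2 smooth muscle genes, 1 cushion gene, 0 ligands, and 0 erythroid, immune or megakaryocyte genes. The 1 heart muscle gene at that level was Nkx2-5, whose locus carries Cre in 1 copy in cKO. Of all genes tested, 6.97% lay under that p. The part of these lists in the endothelial values was not tested.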

How the data were processed

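RNA sequencing of polyadenylated transcripts was made from 500 ng of total RNA per library, as single reads of 75 bases, per the labels' protocols. The deposited table gives, for each gene and library, an expected count (an estimated count that need not be whole), unscaled. The submitters' processing notes name RSEM 1.2.3, cutadapt 1.3, CASAVA 1.8.2 and the build GRCm38; the annotation is not given in the sources used here. GENCODE release 21 for mouse, on GRCm38, gave symbols to 36429 of 38293 identifiers. RefSeq windows came from GRCm38.p6.

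Expected counts were rounded. edgeR 4.0.16 in R 4.3.3 kept 13711 genes (minimum count 10, minimum total 15, by group), scaled libraries by TMM and compared cKO with control by its quasi-likelihood test with Benjamini-Hochberg adjustment over all genes. The SE was derived from the fold change and the test's F statistic, and 95% intervals use its 8.14 degrees of freedom (2 from the libraries, the others from the spread shared over genes). An exact permutation test of 2 against 2 cannot go below 0.333. CPM values are scaled by TMM. Steps were tested on simulated counts.

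The kit does not mark strand. Exons of 6 members (Cd34, Ecscr, Egfl7, Eng, Npr3 and Sox17) overlap those of a gene on the other strand, and those of Ramp2 overlap Vps25 on the same strand, so their reads may be shared. Expected counts of 33 members were whole within 0.05, and the exceptions were Cd34, Egfl7 and Ramp2.

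The members and lists were chosen with earlier results of these data known. Values are given for each member past the threshold and, in each role group, for the 3 with the smallest p, others by range; those named beyond this were chosen after their values were seen. From each other list the 2 genes with the smallest p are named. Alternatives were DESeq2 1.42.0 (size factors, and its test), upper-quartile scaling, limma-voom (limma 3.58.1), no filter, a mean of at least 5 CPM, a block for the replicate number, and leaving out each library in turn. Replicates differed beyond sampling noise, with a chi-square per degree of freedom of 9.44 within cKO and 4.43 within control. A planned comparison of SoxF proteins was not run.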

Additional observations from a re-analysis of the deposited data

How the results depend on the processing

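None of the members passed the threshold (0 of those tested) under any of the alternatives, and the smallest adjusted p was 0.0872, without control replicate 2. Over all genes tested, 70 passed; with 1 library left out there were 39 (without control replicate 3) to 141 (without cKO replicate 2), and 48 to 96 under the other settings. The median of the members was -0.17, from -0.21 to -0.14 with 1 library left out and from -0.20 to -0.13 otherwise. Negative values numbered 27 to 31 with 1 library left out and 30 to 32 otherwise. The count without overlap, 16, was 15 with upper-quartile scaling.

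The replicate block gave 75 calls over all genes, 0 of them members, and a median of -0.18. Same-numbered libraries deviated together with a correlation of 0.106 across genes, and no label says that a number stands for something shared.

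Chosen after seeing the data were 2 settings, cKO replicate 3 thinned to the next depth and the sex chromosomes left out, and the counts of negative values and of genes without overlap. Some members changed sign, and the cause was not tested. Robo4 was -0.0091 with limma-voom; Ecscr was 0.0036 with upper-quartile scaling and 0.026 with thinning, and Sox18 -0.016 with thinning. With 1 library left out the ranges were -0.69 to 0.20 for Cldn5, -0.17 to 0.062 for Icam2, -0.055 to 0.092 for Robo4, -0.19 to 0.052 for Mmrn2, -0.12 to 0.097 for Ecscr, -0.23 to 0.033 for Egfl7, -0.23 to 0.10 for S1pr1, -0.22 to 0.0026 for Tie1, -0.19 to 0.017 for Sox7, -0.059 to 0.075 for Sox18, -0.30 to 0.099 for Nfatc1, -0.29 to 0.19 for Gja4 and -0.034 to 0.35 for Sox17. With 1 library left out, the lone library is assumed to vary like the other group. Depth limits the 8 members under 10 CPM.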
